A study of Caenorhabditis elegans with 2 samples.

Results

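The heterochromatin-type synMuv B genes are 7 protein-coding genes of Caenorhabditis elegans, lin-13, lin-15B, lin-36, lin-61, hpl-1, hpl-2 and met-2, out of 19973 protein-coding genes on the nuclear chromosomes. They were chosen by name and not by a rule on measured values, though earlier results of these data were known. All 7 were found in the annotation. LIN-35 binding was mapped by chromatin immunoprecipitation with sequencing (ChIP-seq) in 1 group, with 2 biological replicates of whole L1 larvae, both sexes together. The larvae were of strain YL398, which carries the unc119(ed3) mutation on chromosome III and the transgene vrIs55. In that transgene the promoter of the gut esterase gene ges-1 controls a LIN-35 fusion to GFP and FLAG, followed by the 3'UTR of lin-35, with unc-119 (+) as the marker. The labels name the eGFP fusion as the target in one field and lin-35 as the antibody in another, and whether LIN-35 made outside the gut was also precipitated cannot be told from these lists. No other genotype, stage or factor was analysed here, so binding is described and not compared between conditions.

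LIN-35 is the worm retinoblastoma-family protein. With E2F, DP and MuvB proteins it forms DREAM, a complex that keeps cell cycle and germline genes low in somatic cells. Genes of the synthetic multivulva (synMuv) class B act redundantly with class A genes to keep vulval fates off in the epidermis. Some class B genes encode DREAM subunits, and the 7 described here encode proteins tied to repressive chromatin. LIN-36 and LIN-15B contain THAP-type zinc fingers, and LIN-13 is a large zinc finger protein that acts with HPL-2. LIN-61 has MBT repeats and binds methylated H3K9, HPL-1 and HPL-2 are worm HP1 proteins, and MET-2 is an H3K9 methyltransferase. A LIN-35 peak near one of these genes places the factor close to a gene for another repressor, and says nothing of whether that gene's transcript level depends on LIN-35, which was not measured.

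Reproducible LIN-35 summits lay upstream of lin-36, lin-61, lin-13 and lin-15B, and none lay near the start of hpl-1, hpl-2 or met-2. A reproducible peak is one of the 6712 peaks in the list that the authors thresholded by the irreproducible discovery rate (IDR) over both replicates. A promoter summit is a peak maximum from 500 bp upstream to 200 bp downstream of any annotated transcript start. By this rule lin-36 and lin-61 had a promoter summit, 2 of 7 genes (28.6%), against 19.8% of all protein-coding genes (3959 of 19973). With the window extended to 1000 bp upstream, lin-13 and lin-15B joined them, 4 of 7 genes (57.1%) against 24.1% of all protein-coding genes. With 250 bp either side of the start none of the 7 had one, against 14.2% of all protein-coding genes. With 7 genes, each gene moves the share by much, and no test of these shares was made. No reproducible summit lay inside any of the 7 genes, and 8.04% of all protein-coding genes held at least 1. With 7 genes, a count of none is near that share.

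**Figure D1:**
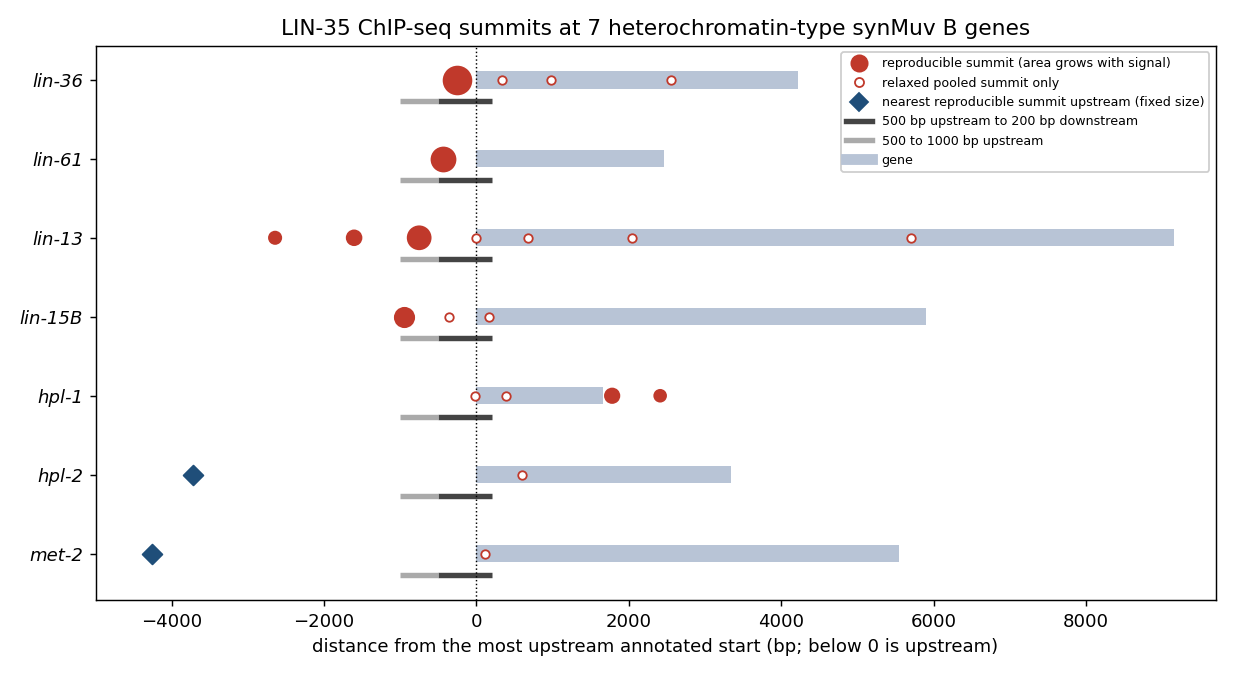
Distance in bp of LIN-35 summits from the most upstream annotated start of each member gene, drawn so that every gene runs to the right. Filled circles are reproducible summits from 3000 bp upstream of the gene to 1000 bp past its end, open circles relaxed pooled summits inside the gene or up to 1000 bp upstream of it, and diamonds the nearest reproducible summit upstream where it lies farther away. The reproducible summits of lin-36 and lin-61 fall within 500 bp of the start, and that of lin-15B 954 bp upstream. Those of lin-13 lie 752, 1606 and 2643 bp upstream, and hpl-1 has its reproducible summits only past its 3' end.

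The gene lin-36 had the strongest reproducible peak of the 7 (chrIII:8020979-8021268 in the ce11 build), with its summit at position 8021126, between genes and 253 bp upstream of the single annotated start. Signal, the value that the authors deposited for each peak, was 606 in replicate 1 and 39.7 in replicate 2, and 650 in the reproducible list. Signal scales differ between the replicate lists and the pooled list, so values are ordered only within a list. At the members' upstream summits the reproducible list has the values of the pooled relaxed list, and only this pair of lists is compared directly. The peak ranked 440 of 30000 in replicate 1 and 560 of 26341 in replicate 2, and the replicate summits lay 1 bp from the reproducible one on both occasions. Among the 3959 genes with a promoter summit, 86.5% had a strongest summit of lower signal. The same summit lay 19 bp upstream of the annotated start of F44B9.11, a non-coding RNA gene on the same strand, and a peak cannot be assigned to one of these starts. The upstream coding neighbour F44B9.2 is on the opposite strand, 1589 bp away.

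The gene lin-61 shared its summit with bub-1, the gene of a spindle checkpoint kinase transcribed in the opposite direction. The peak (chrI:7251580-7251858, summit 7251717) lay between these genes, which are 658 bp apart. Its summit was 435 bp upstream of the nearer start of lin-61, 901 bp from the other lin-61 start, and 224 bp upstream of bub-1. With each summit given only to the nearest start within 2 kb this one counts for bub-1. The members with a summit were then lin-36, lin-13 and lin-15B, against 22.6% of all protein-coding genes. Signal was 447 in replicate 1 and 17.8 in replicate 2, and 469 in the reproducible list. Among the 6172 reproducible peaks found in both replicates it ranked 597 by replicate 1 and 1833 by replicate 2 signal, the widest gap among the 4 upstream summits.

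The gene lin-13 had its nearest reproducible summit outside the 500 bp window, 752 bp upstream of its single start (chrIII:7710103-7710414, summit 7710243). Signal was 398 in replicate 1, 23.2 in replicate 2 and 423 in the reproducible list. No other coding gene starts nearer to this summit. Between lin-13 and its opposite-strand neighbour C03B8.3, which lie 2817 bp apart, there were 2 further reproducible summits. They were 1606 bp upstream of lin-13, with signal 140, and 2643 bp upstream, with signal 78.4. Both had C03B8.3 as the nearest coding start, 1212 and 175 bp away in turn, and the last lay inside the promoter window of that gene. Of the 3 summits, signal was highest nearest to lin-13 and lowest farthest from it, in the reproducible list and in both replicates. The replicate 1 values were 398, 132 and 72.6, and the replicate 2 values 23.2, 7.64 and 5.98.

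The gene lin-15B had 1 reproducible summit, 954 bp upstream of the nearer of its 2 starts and 960 bp from the other (chrX:15725064-15725271, summit 15725169). Signal was 252 in replicate 1, 31.8 in replicate 2 and 284 in the reproducible list. Its coding neighbour ZK662.5, on the same strand, ends 2271 bp upstream of lin-15B, and lin-15B has the start nearest to this summit. No reproducible summit fell up to 1000 bp upstream of lin-15A, the class A gene whose annotated start lies inside the last part of lin-15B. Of all protein-coding genes, 4.28% had a reproducible summit in the 1000 bp window only at more than 500 bp upstream, as lin-13 and lin-15B did. Over the 3959 genes with a promoter summit, the summit lay a median of 163 bp upstream (interquartile range 79 to 274). Of the members counted there, lin-36 at 253 bp lay within that range and lin-61 at 435 bp beyond it. Many worm transcripts are trans-spliced, and their annotated starts can then lie downstream of where transcription begins. Start sites of transcription were not measured here.

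The sequence under the strongest signal is shown for 3 of the 4 upstream summits, those of lin-36, lin-13 and lin-15B, so that their letters can be compared. Each line gives 30 bases around the summit on the strand of the gene, 5′ to 3′, from RefSeq's WBcel235 assembly. Capitals mark a match to E2F letters, and a line without capitals holds no match. The intervals are chrIII:8021112-8021141 on the minus strand for lin-36, chrIII:7710229-7710258 on the minus strand for lin-13 and chrX:15725155-15725184 on the plus strand for lin-15B.
lin-36: ggagagacgtcatagaaaaagtacgcaacc
lin-13: atagtcttcctaccatcgtttgtccgtctg
lin-15B: caaatgttgggttgcGCGCGAAaaagagcg

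The letters under the members' summits were searched for elements bound by factors that work with LIN-35. E2F proteins and LIN-54, the DNA-binding subunits of DREAM, bind E2F and CHR elements. Within 75 bp of the summit, on both strands, the search used for E2F the word TTCCCGC, the word TTCGCGC, the word TTGCCGC and the word TTGGCGC. For CHR it used the word TTTGAA and the word TTCGAA, and for gut GATA factors the word TGATAA. Words of a kind were allowed to overlap. The lin-15B summit had 1 E2F match, TTCGCGC read on the opposite strand, centred 4 bp from the summit. The lin-61 summit had 2 CHR matches, both TTTGAA, the nearer centred 29 bp away, and no E2F match. No match of any kind lay within 75 bp of the upstream summits of lin-36 and lin-13, nor at the farther lin-13 summits. Past the 3' end of hpl-1, the nearer summit had no match and the farther had 1 GATA match, TGATAA read on the opposite strand and centred 40 bp away. Of all 6712 reproducible summits 12.7% held an E2F match, 34.6% a CHR match and 23.3% a GATA match. For the 22738 relaxed pooled summits that overlap no reproducible peak, these shares were 7.23%, 37.3% and 19.1%. A match is a description of the letters and no evidence of a site.

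The order of the 4 upstream summits by signal depended on the replicate, except that lin-36 came highest in both. In replicate 1 the order was lin-36, lin-61, lin-13 and lin-15B (606, 447, 398 and 252). In replicate 2 it was lin-36, lin-15B, lin-13 and lin-61 (39.7, 31.8, 23.2 and 17.8). The reproducible list had the replicate 1 order. With 1 value per replicate, and the order of lin-61, lin-13 and lin-15B reversed between replicates, these 3 genes cannot be ordered by signal. All 4 summits had a partner among the 6712 strongest peaks of each replicate, as did 4695 of all 6712 reproducible peaks. Counted over those lists in the 1000 bp window, the same 4 genes had a summit in replicate 1, against 24.1% of all protein-coding genes, and in replicate 2, against 21.7%.

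**Figure D2:**
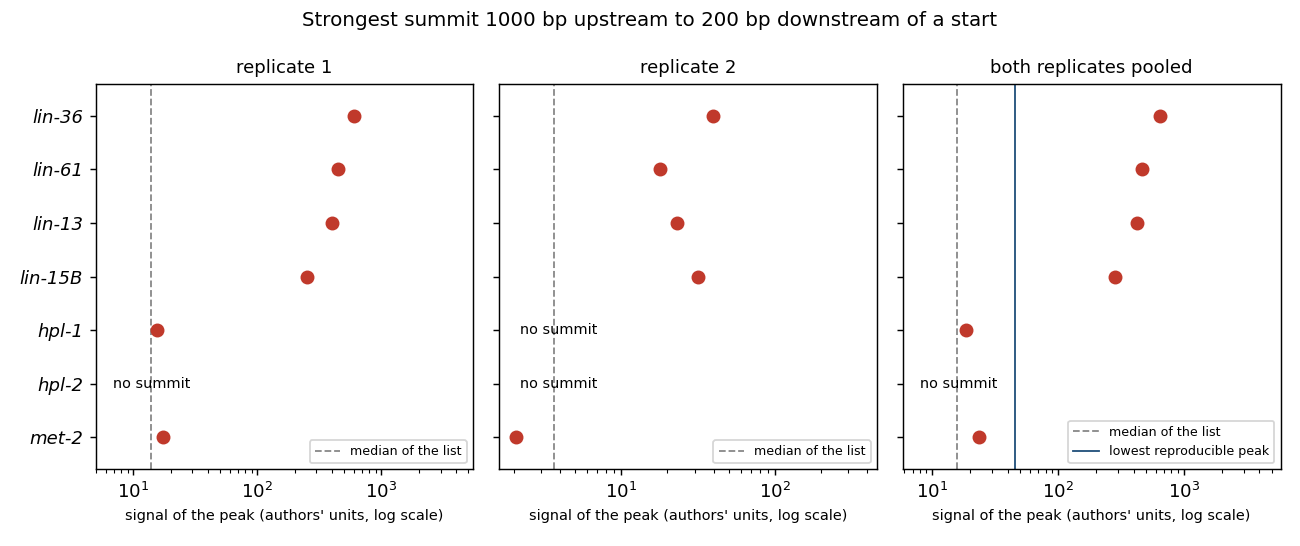
Signal (authors' units, log scale) of the strongest summit from 1000 bp upstream to 200 bp downstream of a start, for each member gene in the relaxed list of each replicate and of both pooled. Dashed lines mark the list's median and the blue line the lowest signal in the reproducible list, 45.9. The genes lin-36, lin-61, lin-13 and lin-15B sit above the median in each list, with pooled signals from 284 to 650. In the pooled list hpl-1 (18.6) and met-2 (23.5) lie above the median of 15.7 and under the lowest reproducible signal, and hpl-2 has no summit in this window in any list. In replicate 2 met-2 (2.06) is below the median of 3.63, and hpl-1 has no summit.

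**Figure D3:**
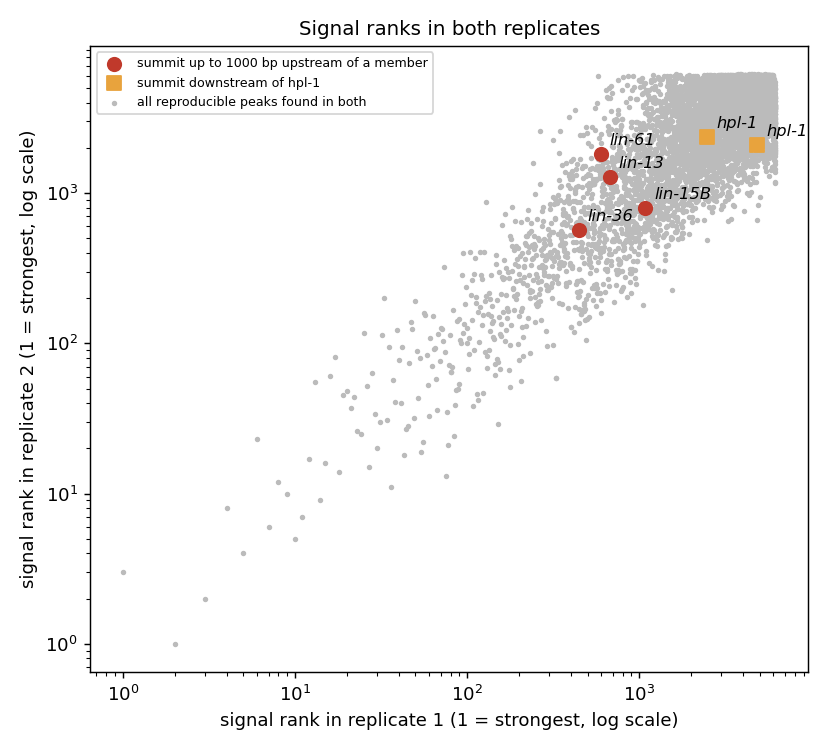
Rank by signal in replicate 1 (horizontal) and replicate 2 (vertical), on log scales with 1 the strongest, for the 6172 reproducible peaks found in both replicates. Red points are the summits upstream of lin-36, lin-61, lin-13 and lin-15B, orange squares the summits past the 3' end of hpl-1, and grey points all such peaks. The lin-61 summit ranks lower in replicate 2 (1833) than in replicate 1 (597), and the lin-15B summit higher (800 and 1085).

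By signal ranks in both replicates, the promoter peaks most like that of lin-36 were nearest to cel-1, an mRNA capping enzyme gene, and to lep-2. Likeness was the summed difference in percentile rank over the 2 replicate lists. It was 0.0332 percentage points for cel-1 and 0.0827 for lep-2. The peaks most like that of lin-61 were nearest to mrpl-2, a mitochondrial ribosomal protein gene, and to psf-1, a subunit gene of the GINS replication helicase complex. Their summed differences were 0.278 and 0.458 percentage points.

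The HP1 gene hpl-1 had its nearest reproducible summit upstream at 20078 bp, with signal 86.4. The relaxed lists, which also hold background, had a weak summit 20 bp upstream of its start in the pooled list, with signal 18.6 and rank 13082 of 30000. Replicate 1 had the corresponding summit 28 bp upstream, with signal 15.6, and replicate 2 had none in the 1000 bp window. Past the 3' end of hpl-1 there were 2 reproducible summits. The nearer lay between genes, 127 bp past the end (chrX:13247090-13247213, summit 13247171), with signal 117 in replicate 1, 14.7 in replicate 2 and 131 in the reproducible list. The neighbour K08H2.7 runs toward hpl-1 from the other side, so this summit lies between convergent gene ends. The farther lay 757 bp past the end, in a coding exon of K08H2.7 (chrX:13247629-13247972, summit 13247801), with signal 55.4 in replicate 1, 16.2 in replicate 2 and 67.5 in the reproducible list. The nearer was thus the stronger in replicate 1, and the farther the stronger in replicate 2.

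The other HP1 gene, hpl-2, had no summit in its 1000 bp window in any of the 4 lists. Inside the gene, the pooled relaxed list had 1 weak intronic summit (signal 8.10, rank 27606 of 30000). Replicate 2 had 1 in a coding exon (signal 3.90) and replicate 1 none. The nearest reproducible summit upstream lay 3721 bp from the start and belonged to one of the strongest peaks of the whole set (chrIII:10759037-10759504, summit 10759251). That peak had signal 3007 in replicate 1, 265 in replicate 2 and 3266 in the reproducible list, where it ranked 9 of 6712. It lay 56 bp upstream of tasp-1, a gene on the opposite strand, and 3 coding genes of the hpl-2 strand follow it in the direction of hpl-2, K01G5.10, rnf-113 and hpl-2 itself.

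The methyltransferase gene met-2 had only weak summits at its start. The pooled relaxed list had 1, in an intron 107 bp downstream of the start, with signal 23.5 and rank 11005 of 30000, under the lowest reproducible signal of 45.9. The corresponding summits were at 111 bp downstream in replicate 1 (signal 17.3, rank 12561 of 30000) and at 102 bp downstream in replicate 2 (signal 2.06, rank 25466 of 26341). The replicate 2 value was close to that list's minimum of 2.00. The nearest reproducible summit upstream was 4253 bp away, 1208 bp upstream of the same-strand neighbour lmbr-1, with signal 58.2.

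Inside the 7 genes the relaxed lists had only weak summits, at densities near those over all genes. The pooled list had 10 summits in 32.3 kb of gene, 0.310 per kb, against 0.284 per kb over all protein-coding genes. Replicate 1 had 12 (0.372 against 0.282 per kb) and replicate 2 had 9 (0.279 against 0.246 per kb). In the pooled list their signals ran from 8.10 to 23.5, all under the lowest reproducible signal, and 6 of 7 genes held at least 1, against 38.1% of all protein-coding genes. In the promoter window, the pooled relaxed list gave a summit to 6 of 7 genes, all but hpl-2, against 38.3% of all protein-coding genes. For lin-13 that relaxed summit lay 1 bp upstream of the start, with signal 8.29, far below the 423 of its reproducible summit 752 bp upstream. For lin-15B there were 2, with signals of 20.04 and 13.5, against 284 at 954 bp upstream.

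**Figure D4:**
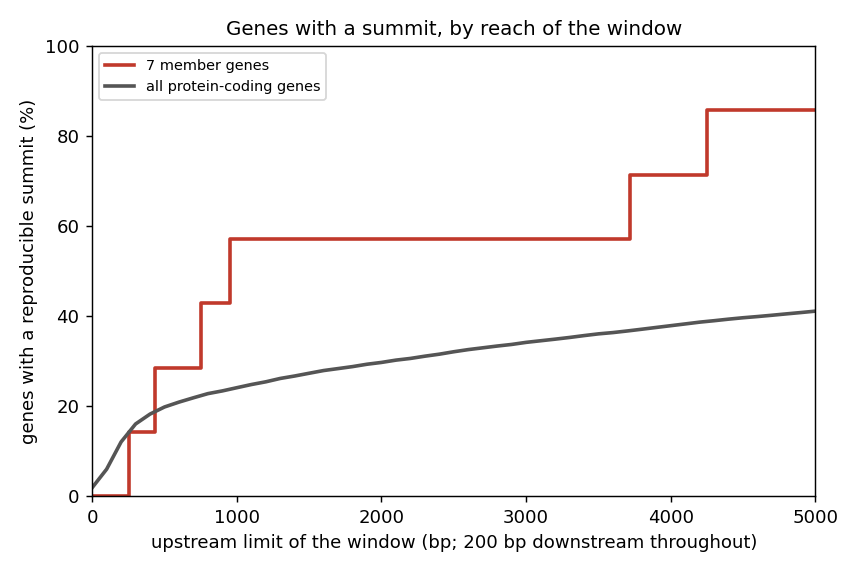
Share of genes (%) with a reproducible summit as the window is extended upstream (bp), with its end 200 bp downstream of the start throughout, for the 7 member genes (red steps) and all protein-coding genes (grey). The member genes are at 0 in the shortest windows, at 57.1% from 1000 bp to 3000 bp against 24.1% to 34.2% of all protein-coding genes, and gain hpl-2 and met-2 only at 3721 and 4253 bp.

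Other genes of the same pathways were counted in the same promoter window, against the same 19.8% of all protein-coding genes. Of 8 DREAM genes 5 had a promoter summit. By signal these were efl-1 (3137), lin-54 (1610), lin-9 (1246), lin-53 and dpl-1. For lin-53, a histone-binding protein gene shared with NuRD, the summit lay 233 bp upstream with signal 1053. For dpl-1, the gene of the DP partner of E2F, it lay 265 bp upstream with signal 752. All 5 signals were above the 650 of lin-36. Summits of lin-53 and lin-54 also lay in a window of another gene, nra-2 and rpl-12 in turn. The DREAM genes lin-35 and lin-37 had none in either window, and lin-52 had a weak one 806 bp upstream (signal 71.1), shared with ZK632.9. Of 7 further genes tied to H3K9 methylation, 2 had one. They were cec-3, a chromodomain gene (signal 154), and arle-14, which encodes a MET-2 partner (signal 60.7). Both summits also lay in a window of another gene, T09A5.15 for cec-3 and abi-1 for arle-14. The genes lin-65, set-25 and set-32, the reader gene cec-4 and the demethylase gene jmjd-2 had none, also in the 1000 bp window.

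Among the class A synMuv genes 1 of 4 had a promoter summit, lin-38 (signal 243), and lin-8, lin-15A and lin-56 had none. Of 4 further genes of the NuRD and MEC complexes, the Mi-2 gene let-418 (signal 52.9) and mep-1 (98.0) had one. The others, the histone deacetylase gene hda-1 and lin-40, had a summit only in the 1000 bp window (signals 112 and 129). That of hda-1 also lay in a window of ril-1. The genes mes-4 (signal 321) and mrg-1 (signal 529), whose products oppose the synMuv B genes, had one. That of mrg-1 also lay in a window of spcs-2. None was found at lin-3, the EGF gene that synMuv genes repress. The median reproducible signal over the 2 members with a promoter summit, lin-36 and lin-61, was 559.6. That over all 3959 genes with a promoter summit was 141. Over the 4 members with a summit in the 1000 bp window it was 446, and no median over all genes with a summit in that window was taken. The member medians rest on so few genes that they describe only these, and the lin-61 summit lies nearer to bub-1. Of the transgene's parts, ges-1 and lin-35 had no promoter summit and unc-119 had a weak one (signal 65.7).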

How the data were processed

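The data were 4 peak lists in the ce11 build: the reproducible list, 1 relaxed list per replicate, and 1 relaxed list called on the replicates pooled. Per the notes deposited with the files, each relaxed list came from an alignment set against a control alignment, and the reproducible list was derived from the relaxed ones by IDR. For the IDR threshold, the aligner, the peak caller and their versions, nothing is given in the sources used here. The signal per peak is the value deposited by the authors, and the read depth is unknown. Signal was compared only within a list, or between the reproducible and the pooled relaxed list. The ce10 lists were not used.

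A summit is the peak start plus the deposited offset, given 1-based. Gene models came from Ensembl release 115 and sequence from RefSeq, both on WBcel235, the assembly that ce11 names. A replicate partner is the strongest replicate peak that overlaps a reproducible peak by at least 1 bp. Background shares cover all 19973 nuclear protein-coding genes. The member genes, lists and motifs were chosen with earlier results of these data known, so no test was made of them. Genes named are the members, genes sharing or nearest to their summits, listed pathway genes, and the genes closest in replicate ranks. Promoter assignment and motif search were tested on simulated data. Computation used Python 3.11.15, numpy 2.4.6 and pandas 2.3.3.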

Additional observations from a re-analysis of the deposited data

How the results depend on the processing

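The count of members with a promoter summit, 2 of 7, depended on the window and the list. It was 4 with 1000 bp upstream, 0 with 250 bp either side and 6 with all pooled relaxed peaks. Counting summits inside the gene as well gave 2, and 4, 0 and 7 under these settings. The share of all protein-coding genes under this combined rule was not counted, so these counts have no background beside them. With all pooled relaxed peaks, 38.1% of all protein-coding genes held a summit inside the gene and 38.3% had a promoter summit, each taken alone. The 7 rests on relaxed summits, hpl-2 being added by its intronic one of signal 8.10, since no reproducible summit lay inside a member. The share of all protein-coding genes with a promoter summit, 19.8%, was 12.7% among the 3356 strongest reproducible peaks and 38.3% with all pooled relaxed peaks, which follows from the number of peaks. With the list of 1 replicate alone, taken as its 6712 strongest peaks, both member counts ran from 2 to 2 and the share from 17.8% to 19.8%. With the nearest start within 2 kb the count was 3, with lin-13 and lin-15B gained and lin-61 lost. It stayed at lin-36 and lin-61 with the most upstream start only, with any overlap of the peak interval, and among the 3356 strongest peaks. The same held for 2 alternatives chosen after seeing the data, RefSeq starts and the 4695 reproducible peaks that overlap the strongest peaks of each replicate. Depth is unknown, so a lack of a summit at hpl-1, hpl-2 or met-2 says only that none was called.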

Other observations

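The position of hpl-2 and met-2 behind same-strand neighbours was looked at after their values were seen. The start of hpl-2 lies 93 bp behind the end of rnf-113, and that of met-2 127 bp behind the end of lmbr-1, both on the member's strand. Following such neighbours upstream while the gap was at most 200 bp led from hpl-2 to K01G5.10 and from met-2 to lmbr-1. The reproducible summit of signal 3266 lay 729 bp upstream of K01G5.10, inside the 1000 bp window of that gene and outside its 500 bp window. The gene lmbr-1 had no reproducible summit in either window. Of all 2370 protein-coding genes with such a neighbour, 51.8% had a reproducible summit in the 1000 bp window of the leading gene and 45.1% in its 500 bp window. Among the 2100 of them without a promoter summit of their own, as hpl-2 and met-2 are, the shares were 50.9% and 44.3%. With gaps of up to 500 bp, the shares over all 3999 genes with such a neighbour were 43.0% and 36.4%. Whether these genes are transcribed together was not measured. The other 5 members lead their own runs under both limits.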
